A study of Rattus norvegicus with 6 samples.

Results

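The genes described here are 36 genes of fatty acid uptake, storage and oxidation, taken as the rows of the gene count table whose gene name is one of a fixed set of symbols. Of the 36, 34 had a row among the 33565 rows of the table, and Cd36, a membrane fatty acid carrier, and Eci2, an enoyl-CoA isomerase, had no row of that name. RNA-seq of mRNA-enriched total RNA was made from primary cardiomyocytes of postnatal day 7 Sprague-Dawley (SD) rats, cultured in medium with fetal bovine serum. Control cells received vehicle for 24 h and the others 100 nM progesterone, a steroid hormone, for 24 h, with 3 libraries each that the labels call biological replicates. No label says whether replicates came from separate animals, so p-values measure the spread between these 6 libraries, which may be technical. The labels name no transgene or deletion, and the comparison asks how a day of progesterone alters these cultured heart cells.

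Fatty acids enter a heart cell through carriers and binding proteins, are joined to coenzyme A by acyl-CoA synthetases, and are either kept as triglyceride in lipid droplets or oxidised. For oxidation in mitochondria the acyl group crosses the membranes as acylcarnitine, is shortened in rounds of the beta-oxidation spiral, and passes its electrons to the respiratory chain through the electron transfer flavoprotein. The newborn heart is known to shift from glucose and lactate towards fatty acids as its main fuel, and peroxisome proliferator-activated receptors (PPARs) with their coactivator PGC-1alpha are known to drive many of these genes.

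Most of the fatty acid genes were lower with progesterone, from activation through the carnitine shuttle to the enzymes of beta-oxidation. Plin2, which coats lipid droplets, was 2.60-fold lower, and the fatty acid carrier Slc27a1 was 2.34-fold lower. All 6 genes grouped under the carnitine shuttle were lower. Acsl3, an acyl-CoA synthetase of lipid droplets, and Etfb, a subunit of the electron transfer flavoprotein, were higher. In edgeR's quasi-likelihood test with Benjamini-Hochberg adjustment over 15075 genes (adjusted p under 0.05), 21 of the 33 tested fatty acid genes were lower, 2 were higher and 10 did not pass. Over all genes tested, 63.0% passed, 31.8% being lower and 31.2% higher, so that passing the test was by itself common here. The log2 fold change was negative in 29 of the 33 genes with a median of -0.31, against a median of 0.003 over all genes tested. The fatty acid genes were chosen with earlier results of these data known, so their contrast with all genes is descriptive only.

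Scaling bore on the smaller changes. Upper quartile scaling shifted the median over all genes by 0.097 (log2). It gave 60.1% of the calls over all genes as higher against 49.6% with TMM scaling. Under it 16 of the 33 fatty acid genes were lower and 3 higher, beside 3879 lower and 5843 higher of the 15075 genes tested. The log2 fold change was then negative in 23 of the 33. The ranges of CPM (counts scaled by library size and TMM factor) of the 2 groups did not overlap in 21 of the 33 genes with progesterone below control, where the same held for 34.8% of all genes tested. In 2 genes the groups did not overlap with progesterone above control, against 33.8% of all genes. Lower by at least 2-fold were 4 of the 33 genes, namely Slc27a1, Plin2, Ehhadh and Acot2, against 9.31% of all genes, and 12 were lower by at least 1.5-fold, against 15.9%. The genes lie on 16 chromosomes.

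**Figure D1:**
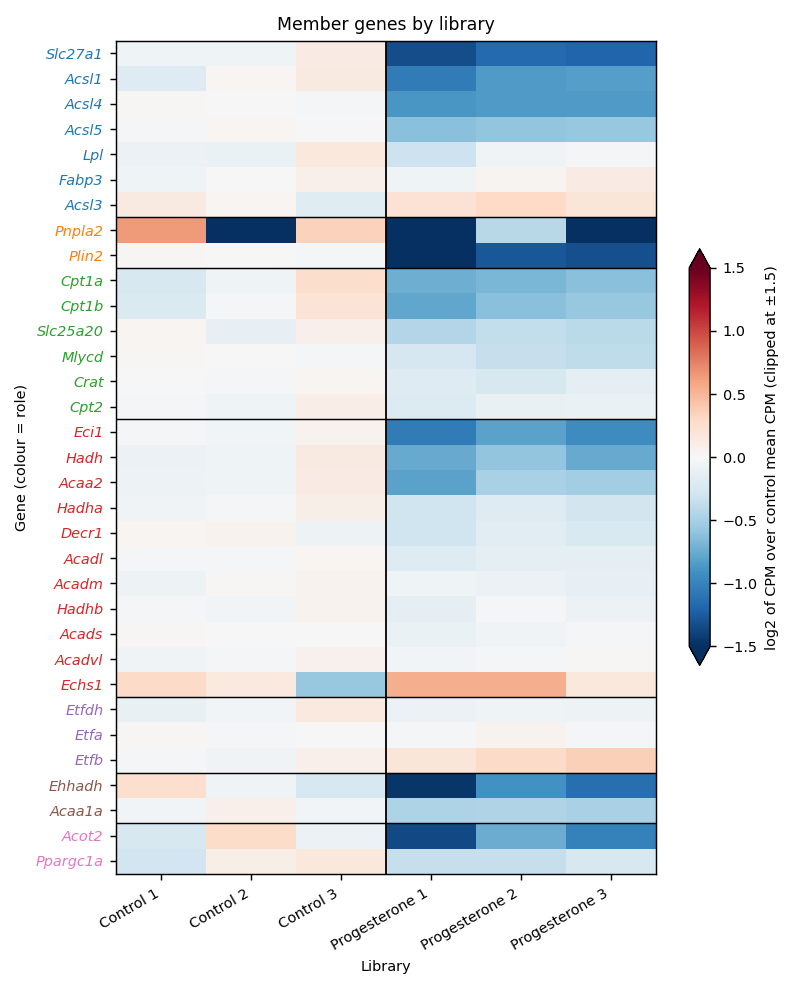
Tested fatty acid genes (rows, grouped and coloured by role) in the 6 libraries (columns), each cell showing the log2 of the library's CPM over the mean CPM of the controls, clipped at 1.5 in either direction. Each gene grouped under the carnitine shuttle is below its control mean in every progesterone library, while Acsl3 and Etfb are above theirs.

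**Figure D2:**
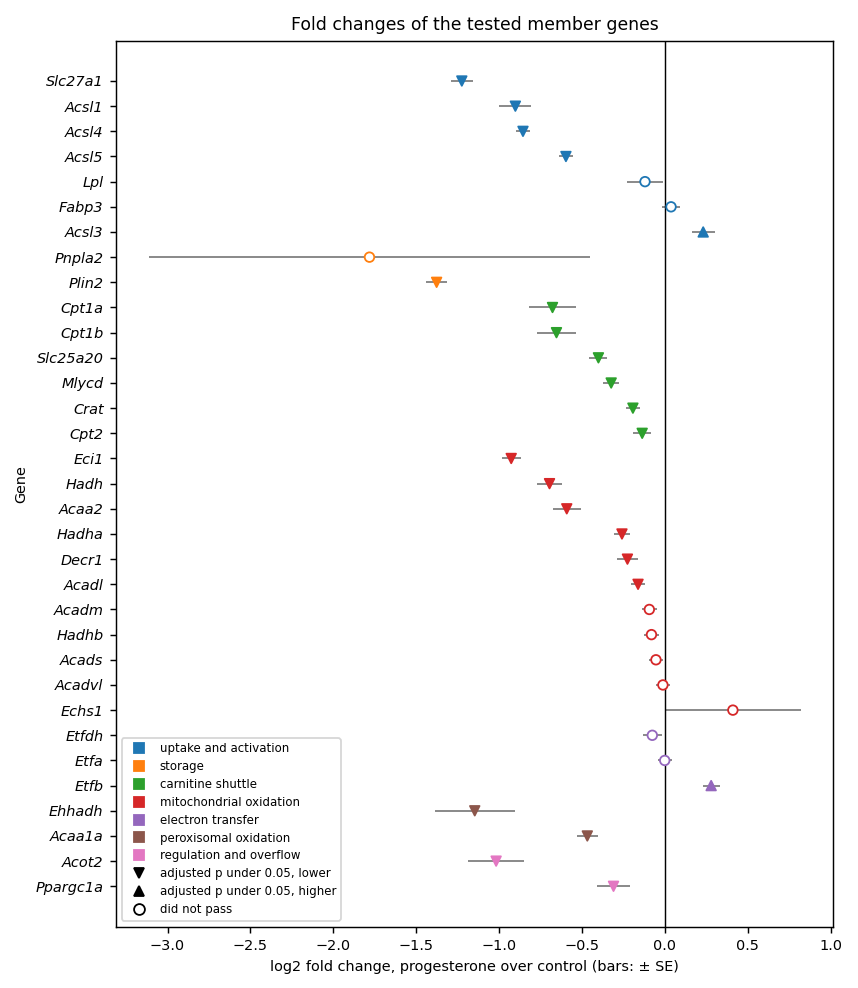
Log2 fold change of progesterone over control for the 33 tested genes (horizontal axis), with bars of 1 standard error (SE) from edgeR, ordered by role and then by value. Filled triangles passed at an adjusted p under 0.05 and open circles did not; Pnpla2 and Echs1 have the widest bars.

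The libraries held 21156793 to 25376220 counts. Of 18 cardiomyocyte markers 17 had a row and all 17 were expressed, with a summed level of 18040 to 18710 CPM in control and 19130 to 21850 CPM in progesterone libraries, 8 higher and 5 lower. Myh6, the alpha myosin heavy chain, was at 4384 CPM in control and 3498 CPM in progesterone libraries. The median log2 fold change of the 17 markers was 0.142, opposite in sign to the change in Myh6. Markers of other cells were present too. Fibroblast markers (11 tested, 7 higher and 3 lower) summed to 28010 to 29200 CPM in control and 37900 to 40790 CPM in progesterone libraries. Smooth muscle and pericyte markers (12 tested, 10 higher and 2 lower) went from between 3351 and 3850 CPM to between 6234 and 6756 CPM, and macrophage markers (9 of 12 tested, 8 higher, none lower) from between 17.7 and 33.3 CPM to between 69.9 and 81.4 CPM. Endothelial markers (10 of 12 tested, 4 higher and 3 lower) summed to 186 to 240.2 CPM in control and 158 to 210.2 CPM in progesterone libraries, with Cldn5 at 0 in all 6. Erythroid markers summed to at most 7.44 CPM in any library. In bulk RNA, fewer cells of a type and less RNA per cell cannot be told apart, and the part of the cell makeup in the fatty acid genes was not tested.

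The sequence before the gene start is shown for 4 genes, chosen to set a carrier and an isomerase that were lower beside a dehydrogenase that did not pass, and to show a gene that shares its promoter region with a partner. Each stretch is the 250 bases before the RefSeq start (build GRCr8), written 5′ to 3′ on the gene's strand. Capitals mark AGGTCA or its reverse complement, the core letters of nuclear receptor binding sites; the Hadha stretch holds none.
Slc27a1 chr16:18312717-18312966 (plus strand): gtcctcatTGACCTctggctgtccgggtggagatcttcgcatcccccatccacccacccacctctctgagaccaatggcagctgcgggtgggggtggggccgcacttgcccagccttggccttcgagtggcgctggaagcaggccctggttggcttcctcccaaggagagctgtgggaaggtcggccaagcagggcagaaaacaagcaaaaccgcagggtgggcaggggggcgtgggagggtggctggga
Eci1 chr10:13961000-13961249 (plus strand): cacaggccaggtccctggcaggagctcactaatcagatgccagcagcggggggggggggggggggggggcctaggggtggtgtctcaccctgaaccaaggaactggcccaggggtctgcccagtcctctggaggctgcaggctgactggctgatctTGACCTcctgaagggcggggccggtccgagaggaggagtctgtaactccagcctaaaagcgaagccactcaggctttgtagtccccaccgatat
Acadvl chr10:55236706-55236955 (minus strand): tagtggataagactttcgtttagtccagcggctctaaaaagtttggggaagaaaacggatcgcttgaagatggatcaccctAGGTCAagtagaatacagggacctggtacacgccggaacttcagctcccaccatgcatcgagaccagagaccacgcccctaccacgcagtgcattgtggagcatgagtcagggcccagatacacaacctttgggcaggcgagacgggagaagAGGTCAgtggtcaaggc
Hadha chr6:31907551-31907800 (plus strand): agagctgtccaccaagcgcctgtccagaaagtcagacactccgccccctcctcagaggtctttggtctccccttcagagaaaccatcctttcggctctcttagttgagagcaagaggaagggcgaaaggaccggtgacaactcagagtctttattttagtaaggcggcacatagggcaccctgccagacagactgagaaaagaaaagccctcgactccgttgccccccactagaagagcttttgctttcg
Windows of 250 bases before to 50 bases after the start were available for 31 of the 36 genes, those for Lpl, Cpt1b, Acadl, Acaa2 and Decr1 not being among them. On either strand AGGTCA was present for 7 of the 31 genes (22.6%), against 16.2% of 33469 RefSeq windows. The first share is per gene and the second per window, and a gene such as Plin2 can have more than 1 window. These 7 were Slc27a1 and Eci1, which were lower, Acadvl, Hadhb and Echs1, which did not pass, and Ucp3 and Eci2, which were not tested. The pattern known for PPARs is 2 copies of AGGTCA in the same direction spaced by 1 base. An exact match was found for 0 of the 31 genes and in 0.0538% of all windows. AGGTCA with TCA directly before it, the pattern known for estrogen-related receptors, was found for 0 of the 31 genes (0.433% of all windows). Both patterns contain AGGTCA and so overlap it. Both are so rare over all windows that 0 of 31 does not set these genes apart. Inexact copies and sites outside the windows were not searched. These letters are a description of the windows and do not show binding.

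Among the genes of uptake and activation, 4 of 7 tested were lower and 1 was higher (median -0.60 on the log2 scale). Slc27a1 (also called FATP1), a carrier with acyl-CoA synthetase activity whose promoter stretch is given above, was at 66.7, 66.4 and 75.8 CPM in the control and 27.7, 31.0 and 30.7 CPM in the progesterone libraries. Every progesterone library was less than every control, and the log2 fold change was -1.22 ± 0.065 (SE, adjusted p = 2.1e-10). The table does not name its rat build, and in its coordinates the row spans chr16:19999112-20016190.

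Acsl1, the main acyl-CoA synthetase of the adult heart, was at 108, 125 and 135 CPM in control and 59.5, 68.3 and 69.1 CPM in progesterone libraries. The groups were well apart despite the spread among the controls, with a log2 fold change of -0.90 ± 0.097 (adjusted p = 1.4e-04). Acsl4, which prefers arachidonic acid, was at 157, 155 and 153 CPM in control and 84.8, 86.2 and 86.1 CPM in progesterone libraries. Its replicates lay close together and the change was -0.86 ± 0.040 on the log2 scale (adjusted p = 4.9e-11). Acsl5, a synthetase of mitochondria and endoplasmic reticulum, was at 122, 127 and 123 CPM against 80.2, 82.0 and 83.8 CPM, again without overlap (log2 fold change -0.60 ± 0.042, adjusted p = 5.5e-09).

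Acsl3 went the other way. It was at 66.9, 62.4 and 54.1 CPM in control and 70.9, 75.1 and 69.5 CPM in progesterone libraries. The lowest progesterone library was just above the highest control, and the log2 fold change was 0.23 ± 0.069 (adjusted p = 0.0121), with an adjusted p of 0.0541 when progesterone replicate 2 was left out. Per length, in FPKM (fragments scaled by gene length and library total), Acsl3 made up 18.2%, 16.5% and 14.5% of the summed level of the 5 Acsl genes in the control and 28.3%, 28.5% and 26.7% in the progesterone libraries. Its mean share was thus 16.4% ± 1.84 (SD, n = 3) and 27.8% ± 1.01 (SD, n = 3), a difference of 11.4 percentage points with an exact two-sided permutation p of 0.1, the smallest that 3 against 3 allows. The share of Acsl1 was 22.7% ± 2.42 in control and 17.5% ± 1.00 in progesterone libraries (SD, n = 3), that of Acsl4 23.3% ± 0.595 and 18.6% ± 0.321, and that of Acsl5 37.5% ± 0.13 and 35.9% ± 0.621. For each of these 3 genes no progesterone library reached the lowest control, and each had the same exact permutation p of 0.1, which is 0.133 after Benjamini-Hochberg adjustment over the 8 ratios compared, as it is for every ratio given with p = 0.1. Acsl6, at 0.103% and 0.11% of the sum, was near the floor of the data (exact permutation p = 0.8).

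**Figure D3:**
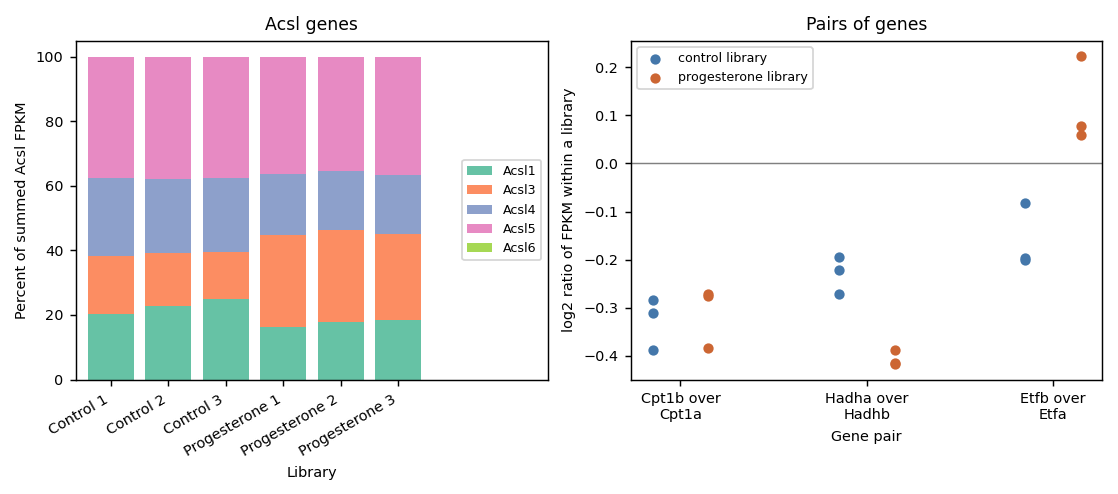
Left, percent of the summed FPKM of the 5 Acsl genes taken by each gene in the 6 libraries; right, log2 ratios of FPKM within a library for 3 pairs of genes, a point per library. The Acsl3 share is larger in every progesterone library, the pair Cpt1b over Cpt1a overlaps between groups, and the other pairs do not.

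The remaining genes of uptake did not pass under TMM scaling with the filter on low counts and no replicate block. Fabp3, the heart fatty acid binding protein, had the highest level per length of all the fatty acid genes, at 339 ± 16.7 FPKM in control and 348 ± 22.7 FPKM in progesterone libraries (SD, n = 3). Its CPM ran from 248 to 274 in control and from 248 to 284 in progesterone libraries. The ranges overlap, with progesterone replicate 3 above every control. The log2 fold change of Fabp3 was 0.04 ± 0.053 (adjusted p = 0.564, and 0.036 as higher under upper quartile scaling). Lpl, the lipase that frees fatty acids from lipoproteins, was at 253, 251 and 300.1 CPM in control and 216, 258 and 265 CPM in progesterone libraries. These groups overlap (log2 fold change -0.12 ± 0.107, adjusted p = 0.375). Lpl did pass as lower when no filter on low counts was used (adjusted p = 0.0476) and with the replicate number as a block (adjusted p = 0.0499).

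For Cd36 no value can be given. A row named RGD1565355, which the table describes as similar to fatty acid translocase, was at 41.5, 52.1 and 52.6 CPM in control and 41.4, 51.9 and 42.2 CPM in progesterone libraries. It is not among the 36 genes, its groups overlap, and its log2 fold change was -0.11 ± 0.128 (adjusted p = 0.499).

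Of the storage genes, Plin2 (perilipin 2), which covers and protects lipid droplets, had the most negative log2 fold change among the genes that passed. It was at 249, 244 and 244 CPM in control and 83.1, 102 and 98.8 CPM in progesterone libraries. The controls lay close together and every progesterone library was far below them, the mean falling from 246 ± 3.22 to 94.6 ± 10.1 CPM (SD, n = 3; log2 fold change -1.38 ± 0.065, adjusted p = 3.0e-09). Per length, Plin2 went from 132 ± 2.00 to 50.6 ± 5.33 FPKM, from among the 4 highest of the fatty acid genes in control to a level near that of Acadm and Acadvl with progesterone. Its row spans chr5:104984414-105010857 in the table's coordinates.

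Pnpla2 (ATGL), the lipase that starts the breakdown of triglyceride in droplets, could not be measured well. It had 152, 15 and 111 counts in the control and 5, 61 and 6 in the progesterone libraries. Both groups hold high and low libraries, so a log2 fold change of -1.78 came with an SE of 1.33 (adjusted p = 0.312). A row described as a Pnpla2-like gene (LOC100911615) held 2 counts over the controls and 1 over the progesterone libraries. Whether a second copy bore on the Pnpla2 counts was not tested. The neighbouring rows Rplp2 and Cd151 were as uneven among replicates, Rplp2 lying at 4.41, 34.9 and 55.8 CPM in the controls.

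All 6 genes grouped under the carnitine shuttle were lower, by a median of -0.36 on the log2 scale. The group also counts Mlycd, which is not itself part of the shuttle, and Crat, which acts on acetyl groups. Cpt1a and Cpt1b make the liver and muscle forms of carnitine palmitoyltransferase 1, the rate-limiting step of fatty acid entry into mitochondria. Cpt1a was at 84.3, 95.1 and 119 CPM in control and 60.0, 61.9 and 64.5 CPM in progesterone libraries. The controls spread widely but stayed above every progesterone library, and the log2 fold change was -0.68 ± 0.142 (adjusted p = 0.0106, and 0.0515 without progesterone replicate 2). Cpt1b was at 59.5, 68.3 and 79.6 CPM in control and 40.2, 44.8 and 46.6 CPM in progesterone libraries. It too had no overlap, with a log2 fold change of -0.65 ± 0.118 (adjusted p = 0.00313).

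The pair was also compared within libraries. The log2 ratio of Cpt1b to Cpt1a in FPKM was -0.33 ± 0.053 in control and -0.31 ± 0.064 in progesterone libraries (SD, n = 3), a difference of 0.017 with an exact two-sided permutation p of 0.5, where 3 against 3 cannot go below 0.1. The ratios overlapped between groups, and in all 6 libraries Cpt1a was the more abundant per length, at 22.9 ± 4.07 against 18.2 ± 2.64 FPKM in control.

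Slc25a20, the carrier that exchanges acylcarnitine for carnitine across the inner membrane, was at 76.0, 68.3 and 78.4 CPM in control and 54.9, 57.4 and 56.3 CPM in progesterone libraries. No library crossed to the other group's range (log2 fold change -0.40 ± 0.054, adjusted p = 9.4e-06). Mlycd, the malonyl-CoA decarboxylase that removes the inhibitor of carnitine palmitoyltransferase 1, was at 63.6, 62.7 and 62.2 CPM against 52.9, 49.5 and 48.4 CPM (log2 fold change -0.32 ± 0.049, adjusted p = 3.1e-05). Crat, carnitine acetyltransferase, had the highest level of the group per length and went from 69.9 ± 1.57 to 61.1 ± 2.12 FPKM (SD, n = 3). Its log2 fold change was -0.19 ± 0.043 (adjusted p = 0.00101). Cpt2, which rebuilds acyl-CoA inside the mitochondrion, had the smallest log2 fold change of the 6, going from 62.4, 60.8 and 68.3 CPM to 55.2, 59.1 and 59.8 CPM.

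Cpt2 was close to the threshold (log2 fold change -0.14 ± 0.054, adjusted p = 0.0373) and was not called in 8 of the 16 alternatives, among them those without control replicate 3 or without any of the progesterone replicates (adjusted p from 0.0504 to 0.169). Crat was lost under upper quartile scaling alone (adjusted p = 0.0613). Summed over its 6 genes, Mlycd and Crat included, the shuttle group went from 209.7 ± 10.9 to 167 ± 2.83 FPKM (SD, n = 3). No progesterone library, at 165 to 170.0 FPKM, reached the lowest control, at 202 FPKM.

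**Figure D4:**
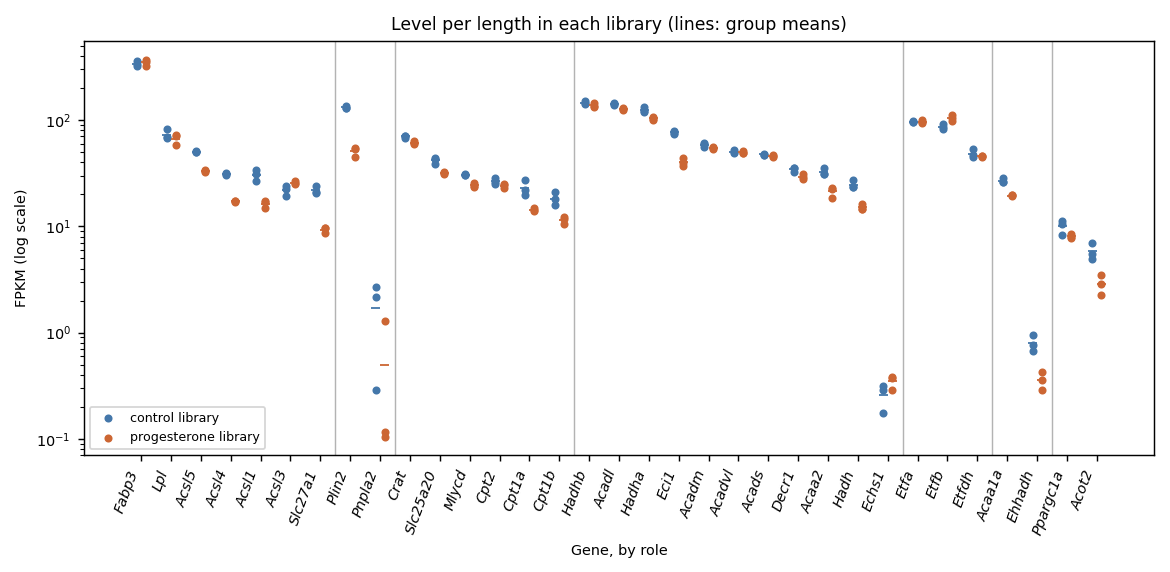
Level per length (FPKM, log scale) of each fatty acid gene with a mean of over 0.1 FPKM in control, a point per library and a line at each group mean, grouped by role. Fabp3 is the highest gene in both groups, and Pnpla2, Echs1 and Ehhadh lie lowest.

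In the mitochondrial beta-oxidation enzymes 6 of 11 tested genes were lower, none was higher and 5 did not pass (median -0.16 on the log2 scale). Eci1, the isomerase that moves double bonds so that unsaturated fatty acids can enter the spiral, led them at 77.7, 76.2 and 81.3 CPM in control and 38.0, 45.0 and 40.7 CPM in progesterone libraries. All progesterone libraries were far below the controls (log2 fold change -0.93 ± 0.058, adjusted p = 1.6e-09). Its promoter stretch is given above.

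Hadh, the hydroxyacyl-CoA dehydrogenase for medium and short chains, was at 38.5, 38.9 and 45.0 CPM in control and 24.2, 27.2 and 24.2 CPM in progesterone libraries. That left a wide gap between the groups, and the log2 fold change was -0.70 ± 0.074 (adjusted p = 7.7e-07). Acaa2, the mitochondrial thiolase that cuts off acetyl-CoA, was at 50.1, 50.3 and 57.6 CPM against 30.3, 37.7 and 36.8 CPM. It did not overlap either (log2 fold change -0.59 ± 0.085, adjusted p = 8.5e-05).

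Hadha and Hadhb make the alpha and beta subunits of the mitochondrial trifunctional protein, which handles long chains. Hadha was at 352, 358 and 388 CPM in control and 297, 319 and 302 CPM in progesterone libraries, with no overlap (log2 fold change -0.26 ± 0.047, adjusted p = 1.9e-04). Hadhb was at 281, 276 and 293 CPM against 257, 281 and 266 CPM, where the groups overlap (log2 fold change -0.08 ± 0.045, adjusted p = 0.13, and 0.047 without progesterone replicate 2). The log2 ratio of Hadha to Hadhb within a library, in FPKM, was -0.23 ± 0.039 in control and -0.41 ± 0.017 in progesterone libraries (SD, n = 3), separate between groups with an exact two-sided permutation p of 0.1, the smallest possible. This pair was chosen after its values were seen, so its p is descriptive only.

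The subunit genes face away from each other. Their RefSeq starts on chromosome 6 of GRCr8 lie 300 bases apart on opposite strands, so 200 bases of the Hadha window given above are also in the Hadhb window; in the table's own coordinates their rows are 6661 bases apart.

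The acyl-CoA dehydrogenases, which open each round of the spiral for chains of different length, had small differences. Acadl, for long chains, was at 206, 205 and 213 CPM in control and 181, 188 and 188 CPM in progesterone libraries, without overlap (log2 fold change -0.16 ± 0.040, adjusted p = 0.00256, and 0.165 under upper quartile scaling). Acadvl, for very long chains, overlapped between groups, from 106 to 114 CPM in control and from 107 to 111 CPM in progesterone libraries (log2 fold change -0.01, adjusted p = 0.833). Acadm, for medium chains, had a log2 fold change of -0.09 ± 0.045 (adjusted p = 0.0819, and 0.0214 without control replicate 1), and Acads, for short chains, of -0.05 ± 0.042 (adjusted p = 0.283). All of the Acads progesterone values, from 78.8 to 83.2 CPM, were below the lowest control at 83.7 CPM, the only gene of the 33 whose groups were apart without passing the test.

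Decr1, the dienoyl-CoA reductase for polyunsaturated chains, was at 40.6, 41.3 and 37.9 CPM in control and 32.5, 35.9 and 34.0 CPM in progesterone libraries. The groups were apart by a small margin (log2 fold change -0.23 ± 0.061, adjusted p = 0.00439, and 0.0729 under upper quartile scaling). Echs1, the short-chain enoyl-CoA hydratase, had only 12, 10 and 6 counts in control and 12, 12 and 10 counts in progesterone libraries. A difference was not detectable at this depth (log2 fold change 0.41 ± 0.408, adjusted p = 0.399). A row described as an Echs1-like gene (LOC100911186) held 25 counts over the controls and 17 over the progesterone libraries, so the counts of Echs1 are uncertain.

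Summed over the 11 measured genes, mitochondrial beta-oxidation went from 734 ± 22.3 FPKM in control to 623 ± 20.3 FPKM in progesterone libraries (SD, n = 3), and the libraries did not overlap. Much of that sum came from genes of high level, namely Hadhb at 145 and 137 FPKM, Acadl at 142 and 126 FPKM, and Hadha at 124 and 103 FPKM in control and progesterone libraries.

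In electron transfer 1 of 3 genes was higher, none was lower and the median was -0.001 on the log2 scale. Etfb, the beta subunit of the electron transfer flavoprotein, was at 77.6, 75.7 and 82.7 CPM in control and 89.4, 96.0 and 101 CPM in progesterone libraries. Each progesterone library was above each control (log2 fold change 0.28 ± 0.052, adjusted p = 2.4e-04). Etfa, the alpha subunit, was at 132, 129 and 130.2 CPM against 128, 135 and 129 CPM, overlapping fully (log2 fold change -0.001 ± 0.042, adjusted p = 0.984).

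The log2 ratio of Etfb to Etfa within a library, in FPKM, was -0.16 ± 0.066 in control and 0.12 ± 0.09 in progesterone libraries (SD, n = 3), negative in every control and positive in every progesterone library, with the smallest exact permutation p of 0.1. The Etfb and Etfa pair, too, was chosen after its values were seen, so its p is descriptive only. Etfdh, the oxidoreductase that hands the electrons to ubiquinone, ran from 99.5 to 118 CPM in control and from 101 to 103 CPM in progesterone libraries, which lie inside the control range (log2 fold change -0.08 ± 0.056, adjusted p = 0.254). The summed level of the 3 genes was 231 ± 7.85 FPKM in control and 246 ± 7.59 FPKM in progesterone libraries (SD, n = 3), with overlapping ranges.

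Both genes of peroxisomal oxidation were lower. Ehhadh, the bifunctional enzyme of the peroxisomal spiral, was scarce, at 2.95, 2.36 and 2.10 CPM in control and 0.900, 1.32 and 1.13 CPM in progesterone libraries. The groups did not overlap even so (log2 fold change -1.15 ± 0.241, adjusted p = 6.7e-04). Acaa1a, the peroxisomal thiolase, was at 34.0, 37.0 and 34.0 CPM against 25.4, 25.5 and 25.0 CPM, tightly grouped in each (log2 fold change -0.47 ± 0.062, adjusted p = 8.4e-06).

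Of the genes of regulation and overflow, Ppargc1a and Acot2 were lower. Ppargc1a encodes PGC-1alpha, the coactivator of mitochondrial and fatty acid genes, and was at 22.5, 29.0 and 30.6 CPM in control and 21.6, 21.5 and 23.2 CPM in progesterone libraries. Control replicate 1 lay among the progesterone libraries, the call was near the threshold (log2 fold change -0.31 ± 0.102, adjusted p = 0.0202), and it was lost in 6 of the 16 alternatives, among them those without control replicate 2 or 3 or progesterone replicate 1 or 2 (adjusted p from 0.0632 to 0.0858). Acot2, a mitochondrial thioesterase that releases fatty acids from coenzyme A, was at 11.7, 16.8 and 13.0 CPM in control and 5.40, 8.24 and 6.84 CPM in progesterone libraries.

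The Acot2 groups did not overlap (log2 fold change -1.02 ± 0.170, adjusted p = 3.0e-04). Its relatives Acot1 and Acot3 are similar in sequence, so reads could be divided among them. Acot3 was lower (log2 fold change -1.21 ± 0.174, adjusted p = 2.5e-05), and Acot1, with 73 counts over the controls and 25 over the progesterone libraries, did not pass (adjusted p = 0.234). Ucp3, the uncoupling protein of muscle, was at 2 counts over the controls and 0 over the progesterone libraries and was not tested.

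Beside the 36 genes, 118 further genes of lipid metabolism were read from lists by function, of which 116 had a row. In edgeR's test 45 of 109 tested (41.3%) were lower and 29 (26.6%) higher, the median being -0.17 on the log2 scale. Over all genes tested the shares were 31.8% lower and 31.2% higher, beside which the counts below should be read. The lists share a few genes, such as Angptl4, which is counted under both uptake and PPAR targets, so their counts add to more than the total. By list, 12 of 22 regulators (nuclear receptors and coactivators beside enzymes such as Acacb) were lower and 6 higher, 9 of 18 other peroxisomal genes lower and 1 higher, 9 of 17 droplet and lipolysis genes lower and 5 higher, and 4 of 6 other PPAR targets lower and none higher. The lists of uptake and binding (4 of 14 lower, 6 higher), of other mitochondrial oxidation and thioesterases (5 of 17 lower, 4 higher), of fatty acid synthesis (2 of 14 lower, 5 higher) and of ketone bodies (1 of 5 lower, 2 higher) were more evenly divided or leaned upwards. The other mitochondrial list, at 29.4% lower and 23.5% higher, was below the shares over all genes in both directions.

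**Figure D5:**
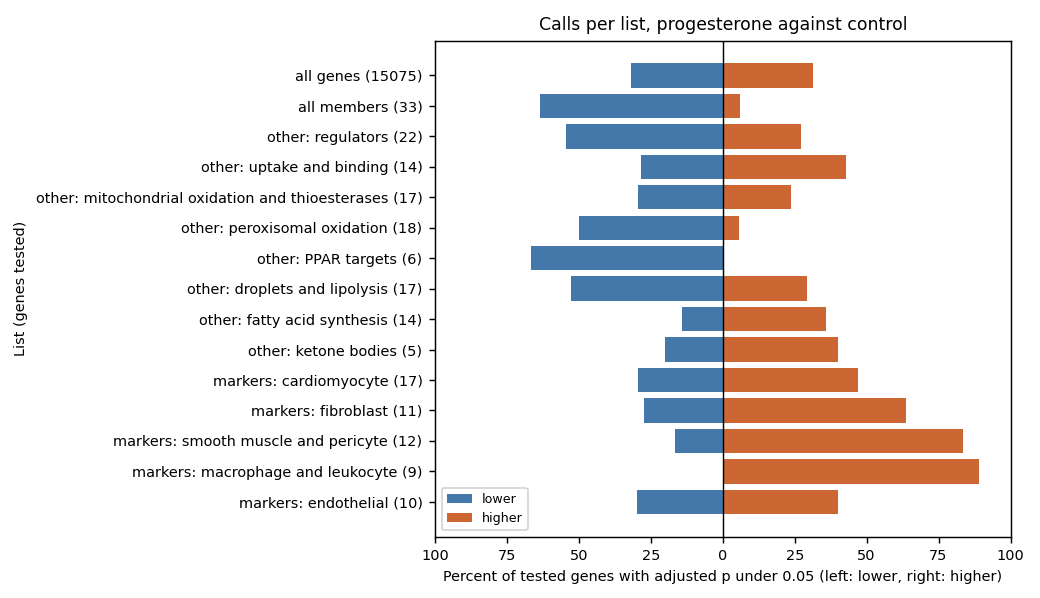
Percent of the tested genes of each list that passed at an adjusted p under 0.05, lower to the left and higher to the right, with the number tested in brackets. The 36 fatty acid genes (all members, 33 tested) reach 63.6% lower and 6.06% higher, where all 15075 genes give 31.8% and 31.2%. These genes and all lists were chosen with earlier results of these data known, so the contrast is descriptive only.

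Of the receptors, Ppard, the PPAR of muscle and other tissues, was at 74.7, 72.5 and 73.7 CPM in control and 40.5, 40.0 and 41.6 CPM in progesterone libraries, far apart (log2 fold change -0.86 ± 0.046, adjusted p = 2.4e-10). Ppara, the receptor of fasting and fatty acid oxidation, was lower from 8.65 ± 0.608 to 5.69 ± 0.487 CPM (SD, n = 3; log2 fold change -0.60 ± 0.127, adjusted p = 6.8e-04). Pparg, the receptor of adipocytes, was scarce and higher, from 0.677 ± 0.249 to 2.61 ± 0.589 CPM (log2 fold change 1.95 ± 0.290, adjusted p = 2.7e-05). Of the adipocyte markers 4 of 10 were tested. Fabp4 and Pparg were the 2 higher ones, and 2 were lower, with a lowest log2 fold change of -1.642. The list summed to 17.2 to 19.8 CPM in control and 33.2 to 33.9 CPM in progesterone libraries. Fabp4 alone went from a mean of 6.79 to 25.0 CPM, so the sum mostly follows Fabp4, and Adipoq was at 0 in every library.

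The coactivator Ppargc1b was higher (log2 fold change 0.40 ± 0.067, adjusted p = 8.2e-05), opposite in sign to Ppargc1a. The estrogen-related receptors, which act with these coactivators, had small differences: Esrrg was lower (log2 fold change -0.20 ± 0.048, adjusted p = 0.00235), and Esrra had a log2 fold change of -0.04 ± 0.046 (adjusted p = 0.508). Klf15, a transcription factor of lipid use in heart, was lower from 39.3 ± 1.12 to 16.4 ± 1.14 CPM, and Lpin1, a phosphatidate phosphatase and coactivator, from 30.5 ± 2.53 to 12.4 ± 0.397 CPM (SD, n = 3).

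Among the genes known as PPAR targets, Angptl4, the inhibitor of lipoprotein lipase, was at 33.6, 42.0 and 59.5 CPM in control and 1.85, 4.61 and 4.24 CPM in progesterone libraries. The lowest control was several times the highest progesterone library, and Angptl4 was 12.5-fold lower (log2 fold change -3.65 ± 0.421, adjusted p = 0.00183). Pdk4, the kinase that shuts pyruvate out of oxidation, was lower from 8.44 ± 0.515 to 4.13 ± 0.459 CPM, and Txnip, a thioredoxin-binding protein, from 409 ± 17.1 to 179 ± 5.31 CPM (SD, n = 3). Ucp2, another uncoupling protein, was lower by 1.25-fold.

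Of the ketone body genes, Oxct1, which activates ketone bodies for use, had a log2 fold change of 0.12 and Bdh1, a hydroxybutyrate dehydrogenase, of -0.17, both past the threshold (adjusted p = 0.0296 and 0.0227). Acacb, whose malonyl-CoA inhibits carnitine palmitoyltransferase 1 at the mitochondrial surface, was at 102, 105 and 122 CPM in control and 41.3, 44.3 and 45.2 CPM in progesterone libraries. It was thus 2.51-fold lower (adjusted p = 7.4e-09), in the same direction as Mlycd, the enzyme that breaks malonyl-CoA down, and as both Cpt1 genes.

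On the droplet side, Dgat2, which makes triglyceride, was 3.21-fold lower, Fitm1, a droplet-forming protein of muscle, 2.74-fold lower and Cidea, a droplet fusion protein, 2.07-fold lower, all without overlap between groups (adjusted p = 6.7e-10, 1.2e-06 and 1.5e-07). Lipa, the lysosomal lipase, was 1.29-fold lower. In peroxisomes, Cat (catalase) was 2.01-fold and Crot, the peroxisomal carnitine octanoyltransferase, 1.91-fold lower, while Hsd17b4 and Phyh were lower by 1.34- and 1.32-fold. In mitochondria, Ech1, the dienoyl-CoA isomerase, was 2.36-fold lower, Acadsb 1.48-fold and Mmut 1.26-fold lower, and Acad9, a dehydrogenase also needed to assemble complex I, was 1.35-fold higher.

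Uptake genes outside the set of 36 went both ways. Slc27a3, a member of the same family as Slc27a1, was 2.82-fold lower, while the binding protein Fabp4 was 3.68-fold, the lipoprotein receptor Vldlr 1.73-fold and the caveolar protein Cav1 1.53-fold higher. In fatty acid synthesis, Fasn, the cytosolic synthase, was at 395, 398 and 356 CPM in control and 634, 581 and 588 CPM in progesterone libraries, without overlap (log2 fold change 0.65 ± 0.051, adjusted p = 2.2e-08). Mecr, of the mitochondrial synthesis pathway, was 1.82-fold and the elongase Elovl5 1.37-fold higher, while Srebf1, a transcription factor of lipid synthesis, was 1.36-fold lower.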

How the data were processed

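The authors deposited whole-number counts and FPKM values, the latter scaled by gene length and library total, for each of 33565 rows. Bowtie 0.12.2 and mm8 (mouse) stand in the submitters' processing notes, yet identifiers in the table are rat Ensembl ones. Not given in the sources used here were the rat build, the annotation, the counter and the strand setting. Implied FPKM divisors were 98.8% to 102% of the count totals.

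The counts went into edgeR 4.0.16 (R 4.3.3; filterByExpr at its minimum count, 10, and minimum total, 15; TMM factors 0.984 to 1.01, robust quasi-likelihood fit, Benjamini-Hochberg over all genes tested, threshold 0.05). The coefficient of variation from edgeR's common dispersion was 9.04% between replicates. All CPM are TMM-scaled; SEs derive from the F statistic. The script was tested on simulated data. Alternatives were other scalings, filters, DESeq2 1.42.0, limma 3.58.1 on log2(FPKM + 1) and log2(FPKM + 0.1) for genes with a mean of at least 1 FPKM, a replicate block, and each library left out. Ratios between genes used FPKM and exact permutation tests; those of Hadha to Hadhb and Etfb to Etfa were chosen after their values were seen.

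Replicates differed beyond sampling noise (5.5 to 9.64 times the chi-square degrees of freedom), and Pearson r of log2 CPM was 0.992 to 0.993 within groups. The fatty acid genes and all lists were chosen with earlier results of these data known. All 36 were reported; of the other lists, up to 4 genes per list with the smallest adjusted p and a mean of at least 1 CPM, plus a set of regulators and targets; some genes that this rule names are not reported here. Promoters came from RefSeq (GRCr8), matched by symbol.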

Additional observations from a re-analysis of the deposited data

How the results depend on the processing

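Over 16 alternatives and 33 tested fatty acid genes, 485 of 523 log2 fold changes kept their direction and their call or lack of one. Of the rest, 19 lost the call, 5 gained it and 14 changed sign, none of the last having been called. Direction and call or lack of one held for 18 genes under every alternative that gave a value. Among these 18 are Pnpla2 and Echs1, which did not pass under any setting. Under upper quartile scaling the median over the genes was -0.213, and under limma on log2(FPKM + 1) it was -0.272; leaving out a library gave -0.317 to -0.266, 1 to 2 genes higher and 19 to 22 lower, and Etfb was the gene still higher without progesterone replicate 2. Over all alternatives 16 to 22 genes were lower. Calls lost were those of Cpt2 (8 settings), Ppargc1a (6), and 1 each for Crat, Acadl, Decr1, Cpt1a and Acsl3; gained were Lpl (adjusted p = 0.0476 with no filter, 0.0499 with the block), Fabp3 (0.036, upper quartile), Acadm (0.0214 without control replicate 1) and Hadhb (0.047 without progesterone replicate 2). The cause was not tested.

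Signs changed as follows. Under upper quartile scaling Acadvl was at 0.085, Acadm at 0.002, Acads at 0.042, Hadhb at 0.015, Etfa at 0.095 and Etfdh at 0.02. Etfa was at 0.0 under RLE scaling and DESeq2, and with a library left out it ran from -0.026 to 0.017, Acadvl from -0.037 to 0.015 and Fabp3 from -0.008 to 0.088. Differences in the ratios between genes moved by less than the larger of both groups' SDs in every setting run.

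Samples with the same replicate number deviated together only weakly over all genes tested (r = 0.0758, 0.0232 and 0.0141). This does not settle whether the numbers pair them, and the main fit did not treat them as pairs. With the replicate number as a block, 22 fatty acid genes were lower and 2 higher, with a median of -0.302, and 4817 and 4691 of all genes. In edgeR's test with the block, the adjusted p was 3.8e-11 for Acsl1, 2.9e-05 for Cpt1a and 2.3e-08 for Cpt1b. These are below the values without the block, while those of Plin2 (1.3e-08) and Ehhadh (0.00126) are above them. Echs1 and Ucp3 had few counts in every library, and replicates of Pnpla2 were uneven.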
